A study of Homo sapiens with 18 samples.

Results

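Keratins are the intermediate filament proteins of epithelial cells. The genes described here are the keratins of simple epithelia KRT7, KRT8, KRT18, KRT19, KRT23 and KRT80 and the keratins of stratified squamous epithelia KRT5, KRT6A, KRT14 and KRT16. They were chosen by symbol, and each was read from the probe set annotated to it alone that had the highest mean over the lines. Of the 10 genes 9 were measured, among 19774 genes on the array. KRT6A had no probe set annotated to it alone and was not analysed here. RNA was measured in 18 established cell lines labelled as colorectal cancer (CRC), with 1 whole-transcriptome array per line. The 10 lines in DMEM/F-12 medium were CAR1, CL40, HT55, HUTU80, LS180, OUMS23, RKO, SW1463, SW48 and SW948, and the 8 in RPMI-1640 medium were COLO320HSR, HCT116, KM12, LS513, MDST8, NCIH716, RCM1 and SNUC1. Both media held glutamine, HEPES buffer, fetal bovine serum, penicillin and streptomycin, and the RPMI-1640 also had added glucose and pyruvate.

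A keratin filament is built from pairs of 1 type I and 1 type II chain, and an unpaired chain is usually degraded. KRT8 and KRT7 are type II chains and KRT18, KRT19 and KRT20 type I chains of simple epithelia, where KRT8 with KRT18 is the founding pair and KRT20 marks differentiated intestinal cells. In stratified epithelia KRT5 pairs with KRT14 in the basal layer, and KRT6A pairs with KRT16 in skin appendages and in wounded or fast-growing epidermis. The normal colon lining is a simple epithelium that makes KRT8, KRT18, KRT19 and KRT20.

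The values are log2 intensities, so a difference of 1 is a change of 1 doubling. They depend on the probe set, so the level of 1 gene is compared between lines, and genes are compared by their deviations from their own mean or, for KRT8 with KRT18, their own median over the 18 lines. A gene was read as above background over 3.77, the 95th percentile of 73 probe sets of genes restricted to other tissues, and values between 3.77 and 5 are described as near background. Each line had 1 array, so no value has a replicate error. The median SD between the probe sets of 1 gene, 0.38 over 8233 genes, is the scale used here for differences between lines. That scale compares probe sets on the same arrays, so it holds no variation between repeat cultures or arrays. In each line between 11455 and 11851 genes were above background. Of 7 markers of intestinal epithelium, 2 (CDX1 and CDX2) were above background in every line, but only near it in some. CDX1 was 3.88 to 4.83 in HCT116, RKO, SW48, MDST8, COLO320HSR, NCIH716, CAR1, HUTU80 and OUMS23. CDX2 was 4.28 in MDST8, 4.80 in CAR1 and 4.84 in OUMS23. VIL1, which bundles actin in microvilli, was above background in 10 lines, and the cadherin gene CDH17 in 14. HUTU80, known as a line from the duodenum, and MDST8 had CDH17 at 3.74 and 3.27, CDH1 at 4.08 and 3.16, and the surface antigen gene GPA33 at 3.47 and 3.24. They were not alone, as RKO had CDH17 at 3.78, CDH1 at 3.43 and GPA33 at 3.14. GPA33 was also below background in HCT116, SW48, COLO320HSR and CAR1, and CDH1 in COLO320HSR and NCIH716.

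**Figure D1:**
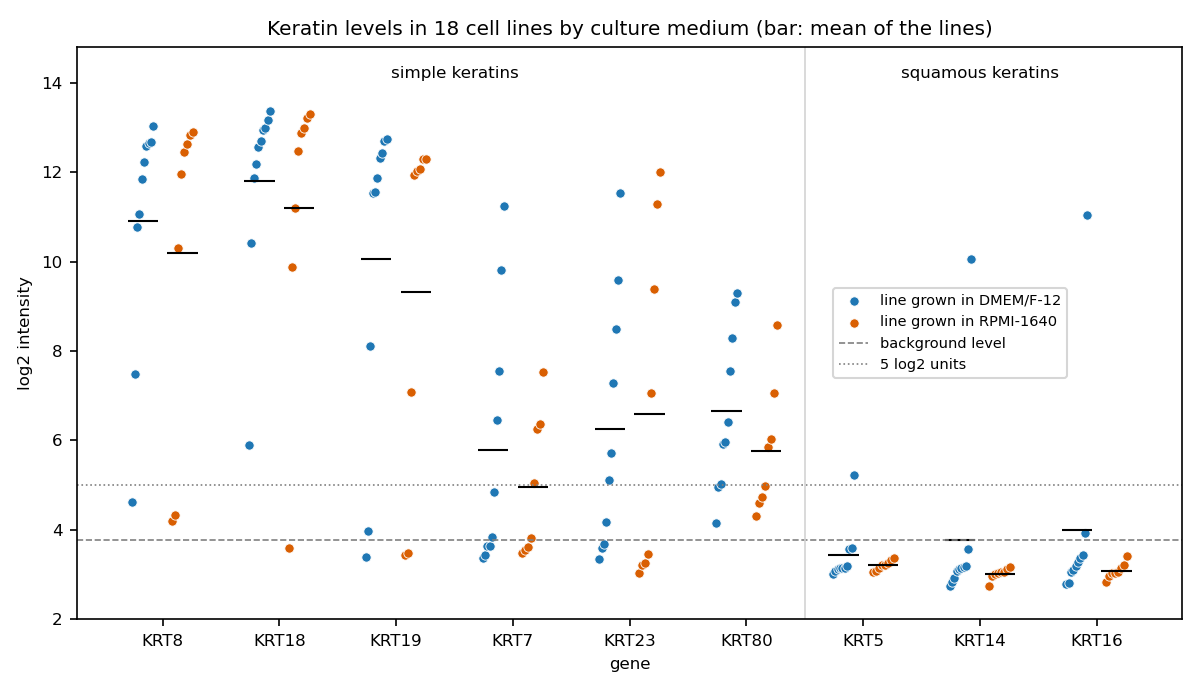
Levels of the 9 measured keratins (vertical axis, log2 intensity) by gene and culture medium; each point is 1 line, the black bar is the mean of the lines, the dashed line is the background level of 3.77 and the dotted line a level of 5. KRT8, KRT18 and KRT19 lie above 10 in most lines, KRT7, KRT23 and KRT80 spread over the scale, and KRT14 and KRT16 exceed 5 in 1 line, CAR1.

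KRT8, the type II chain present in all simple epithelia, was high in most lines and near background in 3. Its level was lowest in MDST8 (4.19), had a median of 12.09 and was highest in CL40 (13.03), a 459-fold spread. COLO320HSR (4.32) and RKO (4.63) lay beside MDST8, HUTU80 had 7.49, and the other 14 lines ran from 10.31 in NCIH716 to 13.03. Ranked by level, 13 of 17 neighbouring lines were closer than 0.38, so most of the order among high lines is within the spread between probe sets. KRT18, the type I partner, was lowest in COLO320HSR (3.59, below background), had a median of 12.63 and was highest in CL40 (13.37). HUTU80 had 5.90, MDST8 9.88 and RKO 10.41, and the other 14 lines had 11.20 to 13.37. For KRT18, 12 of 16 neighbouring lines above background were closer than 0.38. Both probe sets are of the kind that can also bind transcripts of related sequence, and both genes have many pseudogenes, so a part of either signal may come from copies.

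The same 4 lines, MDST8, COLO320HSR, RKO and HUTU80, were lowest in KRT8 and in KRT18, but the size of the drop differed between the genes. RKO and MDST8 had KRT8 near background and KRT18 well above it. In RKO, KRT8 lay 7.46 below its panel median (deviation −7.46) while KRT18 deviated by −2.22, a difference of 5.24 between the 2 deviations. In MDST8 the deviations were −7.90 for KRT8 and −2.75 for KRT18, and their difference was 5.15. KRT8 was near background in both lines, so the floor limits these differences. HUTU80 went the other way, with −4.60 for KRT8 and −6.73 for KRT18 (difference −2.13). COLO320HSR had KRT18 below background and KRT8 near it, so no difference is given for it. In the remaining 14 lines the deviations of the pair differed by −0.26 to 0.59. Taken from the panel means, the differences were 4.83 in RKO, 4.74 in MDST8, −2.54 in HUTU80 and −0.66 to 0.19 in the 14 lines. The second KRT8 probe set spanned only 3.25 to 4.12 and could not check this. On chromosome 12 the genes KRT8 and KRT18 are neighbours with 0 coding genes between them in assembly GRCh38.p14.

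**Figure D2:**
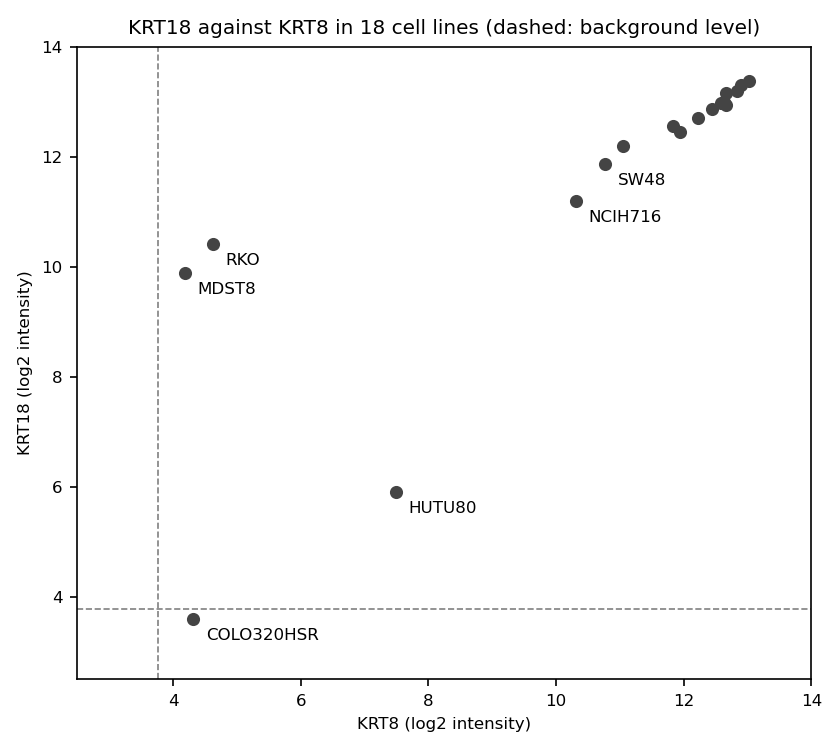
KRT18 (vertical axis, log2 intensity) against KRT8 (horizontal axis, log2 intensity) in the 18 lines, 1 point per line, with dashed lines at the background level of 3.77. Most lines lie on a narrow diagonal at the upper right; RKO and MDST8 have KRT18 at 10.41 and 9.88 with KRT8 at 4.63 and 4.19, and HUTU80 and COLO320HSR are low in both.

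KRT19, the smallest keratin and a type I chain of ductal and glandular epithelia, separated a low from a high set of lines. It was below background in RKO (3.39), MDST8 (3.44) and COLO320HSR (3.48) and near it in HUTU80 (3.97). NCIH716 (7.09) and SW48 (8.10) took places between these and the other 12 lines, which ran from 11.54 in SW948 to 12.74 in CL40. The median was 11.90. The gap between SW48 and SW948 was 3.44, the widest in the ranking, and 11 of 14 neighbouring lines above background were closer than 0.38. The gene's second probe set, with a range of 3.38 to 6.50, had r = 0.96 with the first over 18 lines, which share the arrays and the scaling. That r mostly reflects the step between low and high lines, and the order among the high lines was not compared.

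KRT7 is the type II chain of many ducts and glands and is low in most normal colon. It was above background in 11 lines and above 5 in 8. CAR1 had the highest level (11.25), followed by OUMS23 (9.80), CL40 (7.54) and KM12 (7.52). The median over the lines was 4.34, and the lowest level was 3.36 in SW948. CAR1 lay 1.44 above OUMS23, which in turn lay 2.26 above CL40, and both steps exceed the spread between probe sets. LS180, HCT116, RCM1 and LS513 held 6.45, 6.35, 6.24 and 5.05. HT55 (4.85), SW1463 (3.84) and SNUC1 (3.81) were near background, and the other 7 lines were not above it. The level in CAR1 was 178-fold over the background level and 75.9-fold over 5. The gene has 3 further probe sets, of which 2 also had their highest value in CAR1 (6.06 and 6.76) but were above background in only 2 lines each. The remaining 1 was above background in 0 lines, so KRT7 in most of the 11 lines rests on 1 probe set.

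KRT23, a type I keratin that gastrointestinal tumour cells can make, was spread over a wide range of levels. RCM1 was highest, 0.46 above HT55 (11.54), and SNUC1 (11.29), SW948 (9.58), LS513 (9.39), CAR1 (8.50), OUMS23 (7.29) and HCT116 (7.07) followed. SW1463 had 5.71, SW48 5.11 and CL40 4.18, and the other 7 lines were not above background, down to 3.02 in NCIH716. Only 3 of 10 neighbouring lines above background were closer than 0.38, against 13 of 17 for KRT8. With 1 probe set and 1 array per line, how far the order of KRT23 would repeat is not known. CL40 and LS180 were high in KRT8, KRT18 and KRT19 (11.86 or more in both lines) and had KRT23 at 4.18 and 3.34.

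KRT80, a type II keratin found near desmosomes in differentiating cells, was above background in all 18 lines and above 5 in 12. It was highest in CL40 (9.30), CAR1 (9.11), RCM1 (8.57) and LS180 (8.29), with a median of 5.94, and lowest in HUTU80 (4.14) and NCIH716 (4.31). Its range of 5.16 was the smallest among the simple keratins, and 11 of 17 neighbouring lines were closer than 0.38. KRT7 and KRT80 are neighbours on chromosome 12 with 0 coding genes between them. CAR1 and CL40 were high in both genes, while OUMS23 had KRT7 at 9.80 and KRT80 at 4.95.

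KRT20, which is no member but is the keratin most used to mark intestinal cells, fell into a high and a low set of lines. It was 11.43 to 12.34 in RCM1, SNUC1, HT55, SW948, SW1463, LS513 and CL40 and 3.12 to 4.87 in the other 11 lines. The lines with the most KRT7 had little KRT20, with 3.87 in CAR1 and 3.21 in OUMS23. The 5 lines with the most KRT23 were all among the 7 lines high in KRT20. CL40 was high in KRT20 (12.24), KRT7 (7.54) and KRT80 (9.30) together.

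**Figure D3:**
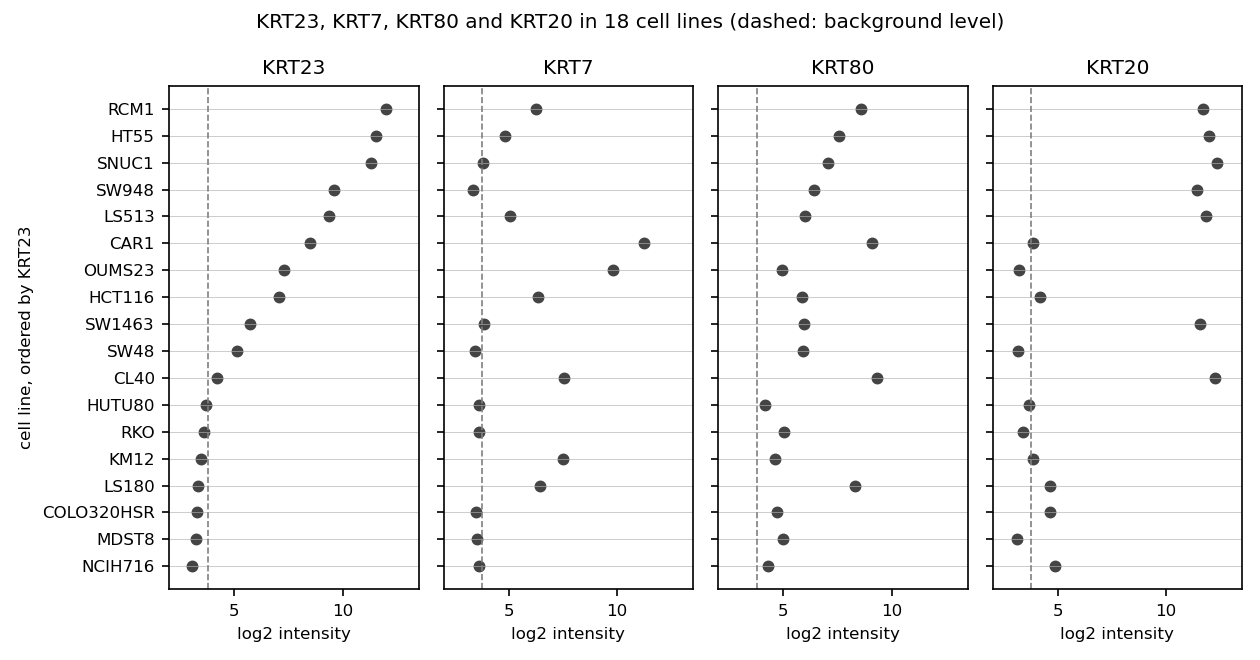
Levels of KRT23, KRT7, KRT80 and KRT20 (horizontal axes, log2 intensity) in the 18 lines (vertical axis), ordered by KRT23; each point is 1 line and the dashed line is the background level of 3.77. KRT7 is highest in CAR1 and OUMS23, where KRT20 is 3.87 and 3.21, and KRT20 is 11.43 or more in 7 lines.

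The squamous keratins were below background nearly everywhere and stood out in CAR1. KRT14, the basal type I chain, was 10.06 in CAR1 and 2.74 to 3.56 in the other 17 lines. The level in CAR1 was 78.4-fold over background and 6.50 above LS180, the next line. KRT16, a type I chain of wounded and fast-growing epidermis, was 11.03 in CAR1 and 2.78 to 3.93 in the others, and lay 7.10 above CL40, the next line. CL40 (3.93) was just over the background level and no other line passed it. KRT5, the basal type II partner of KRT14, was 5.23 in CAR1 and 3.02 to 3.59 elsewhere. The CAR1 level of KRT5 was 2.76-fold over background at 3.77 but 1.71-fold over the 99th percentile (4.45) and 1.17-fold over 5, so the fold depends on the level used. The folds of KRT14 over the 99th percentile and over 5 were 48.7 and 33.4. Each of the 3 genes has 1 probe set here, so none has a second one to set beside it. KRT14 and KRT16 are neighbours on chromosome 17, with 0 coding genes between them and 1 between KRT14 and KRT19. KRT5 and KRT6A are neighbours on chromosome 12.

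The KRT5 promoter is shown because KRT5 is the squamous member with a promoter in the RefSeq table, which matched 2 of the 10 members, KRT5 and KRT8, and because KRT5 was above background in CAR1 alone. The window covers 250 bases before to 50 bases after the RefSeq gene start at chr12:52520345-52520644 of GRCh38.p14, minus strand, and is written 5′ to 3′. Capitals mark a CAGGTG motif, the E-box that repressors such as ZEB1 can bind, whose first base is at −130 from the gene start, and an ATAAAA motif at −29.
KRT5: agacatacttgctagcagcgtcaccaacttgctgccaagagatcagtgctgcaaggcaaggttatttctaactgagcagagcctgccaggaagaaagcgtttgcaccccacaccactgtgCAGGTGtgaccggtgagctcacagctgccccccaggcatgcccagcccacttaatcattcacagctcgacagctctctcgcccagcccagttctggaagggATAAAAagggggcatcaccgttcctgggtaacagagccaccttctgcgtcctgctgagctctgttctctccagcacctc
Both strands were searched for CAGGTG, GCCNNNGGC (an AP-2 motif), TGANTCA (an AP-1 motif), GGGCGG (a GC box) and ATAAAA. These were found in 20.6%, 23.2%, 7.71%, 45.0% and 15.99% of 35116 promoters of the same length, in that order. A match is a description of the letters and not a bound site.

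Per line, simple and squamous keratins were compared by how many were above background and by their median deviation from their own panel means. All 6 simple keratins were above background in 9 lines, 5 in KM12, SW48, SW948 and LS180, 4 in NCIH716 and HUTU80, 3 in RKO and MDST8, and 2 in COLO320HSR. At a level of 5 the count was 0 in COLO320HSR, 1 in MDST8, 2 in RKO, 2 in HUTU80 and 3 in NCIH716. Squamous keratins above background numbered 3 of 3 in CAR1, 1 in CL40 and 0 in the other 16 lines. CAR1 therefore had every measured keratin of both groups above background.

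The median deviation of the 6 simple keratins was highest in CAR1 (2.47), RCM1 (2.31) and CL40 (2.29). It was between 1.60 and 1.96 in SNUC1, OUMS23, LS513, HT55, LS180 and KM12, and 0.94, 0.56 and 0.44 in HCT116, SW948 and SW1463. It was negative in SW48 (−0.82), NCIH716 (−1.88), RKO (−2.29), MDST8 (−2.53), HUTU80 (−2.91) and COLO320HSR (−4.70). The median deviation of the 3 squamous keratins was 6.62 in CAR1 and between −0.70 and −0.16 in the other 17 lines. Over all genes above background in at least 1 line, the medians per line lay between −0.09 and 0.01. A squamous deviation below 0 here mostly means a value under background and has no order among lines.

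**Figure D4:**
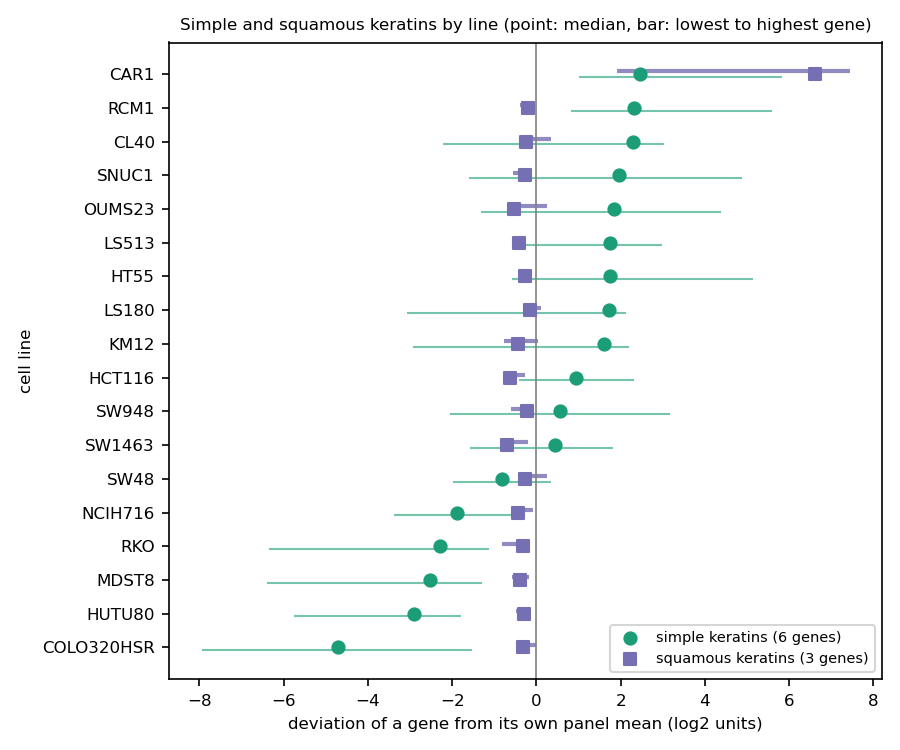
Deviation of keratin genes from their own panel means (horizontal axis, log2 units) in each line (vertical axis), ordered by the simple keratins; points are medians of the 6 simple keratins (circles) and the 3 squamous keratins (squares), and bars run from the lowest to the highest gene. The simple median runs from 2.47 in CAR1 to −4.70 in COLO320HSR, and the squamous median leaves the range of −0.70 to −0.16 in CAR1 alone, at 6.62.

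Most members differed widely between lines. Of the 9 measured members, all above background in at least 1 line, 8 had a range of 3 or more between their highest and lowest line. Over all 15834 genes above background in at least 1 line the share was 30.9%. The median range was 8.26 for the members and 2.06 for all 15834 genes. KRT5, with 2.21, was the member under 3. KRT14 and KRT16 lay at least 3 above every other line, both in CAR1, while 2.65% of all genes did so in some line and 0.259% in CAR1. The 9 members were named as epithelial markers, and the range of a low gene starts at background. Without CAR1 the count with a range of 3 or more was 6 of 9, because KRT14 and KRT16 no longer reached it.

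Partner chains were set against each other over the lines, with most pairs taken from their known partnerships. Each point is 1 array, and all arrays share the scaling, so the correlations are descriptions. KRT8 with KRT18 had r = 0.81 and rho = 0.98 over 18 lines. The lower r than rho came with RKO and MDST8: leaving out RKO gave 0.87, the highest value with any 1 line left out, and leaving out COLO320HSR gave 0.76, the lowest. Among the 17 lines with both above background r was 0.76. For KRT8 as the base, KRT18 took place 69 among 15833 other genes in order of r.

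KRT19 fell into clusters, so its correlations are given on each side of its widest gap. KRT8 with KRT19 had r = 0.95 and rho = 0.83 in the 6 lines below the gap, where KRT19 was at or near background in all but NCIH716 and SW48, so this r rests on those lines. In the 12 lines above the gap r was 0.47 and rho 0.48. KRT18 with KRT19, which are both type I chains and no partner pair, had r = 0.61 below the gap and 0.48 above it. KRT7 with KRT19 had r = −0.39 in the 6 lines, where KRT7 was below background, and r = 0.64 in the 12 lines. KRT7 with KRT18 had r = 0.43 and rho = 0.67 over 18 lines, and −0.14 in the 11 lines with both above background.

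The squamous pair rested on 1 line. KRT5 with KRT14 had r = 0.94 over 18 lines and 0.03 without CAR1, with rho = 0.24. KRT14 with KRT16, which are both type I chains, had r = 0.99 over 18 lines, and 0.21 without the 2 lines farthest from the median of KRT14. The pair KRT6A with KRT16 could not be computed. KRT23 with KRT80 is no partner pair of the list and was added after its values were seen. It had r = 0.49 over 18 lines, 0.20 in the 10 DMEM/F-12 lines and 0.94 in the 8 RPMI-1640 lines, but 0.16 in the 11 lines with both above background. In 4 of the RPMI-1640 lines KRT23 was below background.

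The genes whose levels ran most like each member are given by Pearson's r over the 18 lines among the other 15833 genes. For KRT8 they were CLDN7, a tight junction claudin (0.97), ME1, malic enzyme (0.96), and AP1M2, an epithelial adaptor subunit (0.96), and the most opposed gene was DYNC2H1, a ciliary dynein (−0.95). For KRT19 they were CLDN7 (0.96), the phosphatase gene PTPN6 (0.96) and the adaptor gene SH2D3A (0.96), and the most opposed was EID2B (−0.94). For KRT18 they were LGALS3, galectin-3 (0.94), S100A10, the annexin A2 ligand (0.93), and LDAF1 (0.92), with BOLA3-DT at −0.96. LGALS3 and S100A10 shared with KRT18 a lowest level in COLO320HSR, at 3.32 and 3.41. All 3 keratins were low in a few lines, and those lines weigh most in r. Because KRT19 fell into clusters, its r values over 18 lines mostly reflect the step between its low and high lines. Its rho was 0.59 with CLDN7, 0.66 with PTPN6 and 0.86 with SH2D3A. KRT18 and BOLA3-DT were both above background in 3 lines.

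For KRT7 the most alike were CSGALNACT1, an enzyme of chondroitin sulfate synthesis (0.87), the ubiquitin ligase gene RNF144B (0.82) and ADAM10, a membrane protease (0.82), and the most opposed RPP25, a ribonuclease P subunit (−0.79). CSGALNACT1, RNF144B and ADAM10 were all highest in CAR1, and RPP25 was lowest there. KRT7 and CSGALNACT1 were both above background in 4 lines (rho = 0.68 over 18 lines), and KRT7 and RNF144B in 4 (rho = 0.51). These r values thus rest on few lines with signal in both genes. KRT7 and ADAM10 were both above background in 11 lines, with r = 0.79 there. For KRT80 they were LIPH, a lipase (0.88), ALDH3B1, an aldehyde dehydrogenase (0.86), and ITGB4, the hemidesmosomal integrin chain (0.85), with RNASEH2A at −0.85. KRT23 had weaker counterparts, GRAMD1C, ERMP1 and IDNK (0.80 each), with the tubulin gene TUBA1B at −0.85, although TUBA1B moved only between 12.71 and 13.25.

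Regulators of epithelial genes were described from a list of 20 genes, of which 17 were measured and all 17 were above background in at least 1 line. Of the 17, 16 had a range of 3 or more, beside 30.9% of all genes. ZEB1, a repressor of epithelial genes, was 10.66 in RKO, 9.43 in NCIH716, 9.12 in HUTU80, 8.77 in COLO320HSR and 8.53 in MDST8. It was 4.68 in HCT116 and below background, at 2.82 to 3.66, in the other 12 lines. The 5 lines with high ZEB1 were the 5 lines with the lowest KRT19 and, with 4.08 or less, the 5 with the lowest CDH1, which encodes E-cadherin. They were not alike in the keratins: NCIH716 had KRT8 at 10.31 and KRT18 at 11.20 with ZEB1 at 9.43 and CDH1 at 3.67. ZEB1 and CDH1 both fall into separate clusters, so no correlation over all lines is given.

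**Figure D5:**
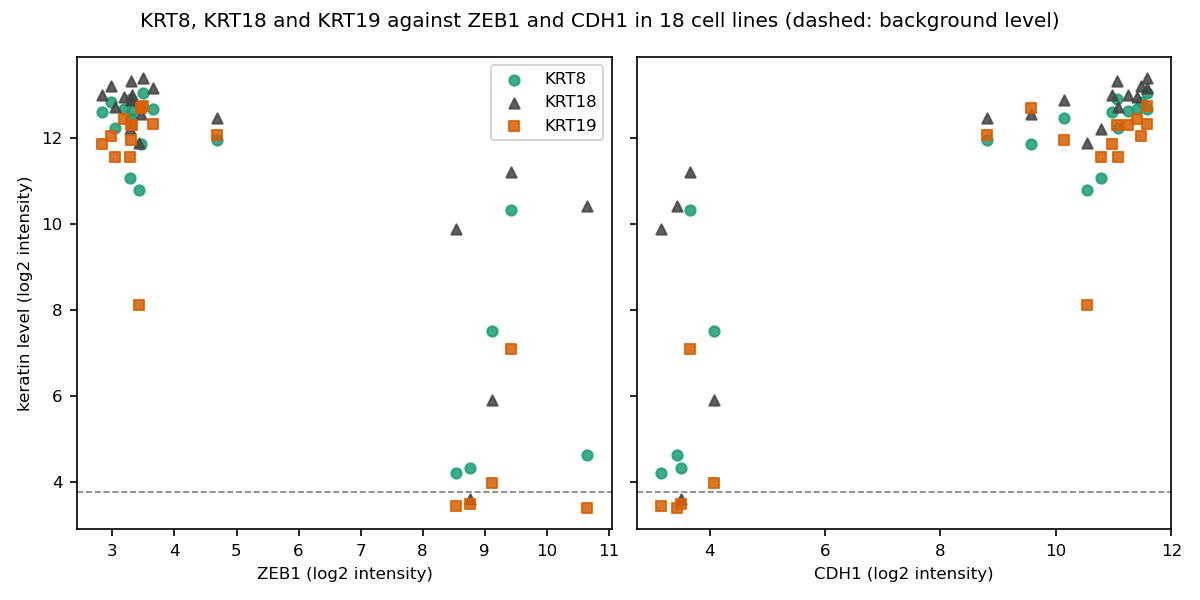
Levels of KRT8, KRT18 and KRT19 (vertical axes, log2 intensity) against ZEB1 (left) and CDH1 (right) in the 18 lines (horizontal axes, log2 intensity), with the background level of 3.77 dashed. The 5 lines with ZEB1 at 8.53 or more are those with CDH1 at 4.08 or less; among them KRT8 runs from 4.19 to 10.31 and KRT18 from 3.59 to 11.20.

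ELF3, an epithelial ETS factor, was highest in HT55 (10.91) and below background in COLO320HSR (2.64), MDST8 (2.85), RKO (2.93) and HUTU80 (2.93), the 4 lines with the lowest KRT8. It was 7.31 in NCIH716. EHF, a related factor, was highest in CL40 (11.53) and below background in these 4 lines and in OUMS23 (3.21), although OUMS23 had KRT8 at 12.67. SOX2, a factor of progenitor cells, was 11.06 in HUTU80, 8.29 in MDST8 and 8.05 in KM12 and did not follow the keratins.

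Genes that anchor keratins to desmosomes and hemidesmosomes had a positive r with KRT8 in most cases. Of 17 listed genes 16 were measured, all above background in at least 1 line. Their median r with KRT8 was 0.62 over the 18 lines, with 14 of 16 positive, while over all 15833 genes the median r was −0.04, with 7280 positive. KRT8 was low in MDST8, COLO320HSR, RKO and HUTU80, and those lines weigh most in these r values. The list was put together with earlier results of these data known. ITGB4 was 10.75 in CAR1 and 3.02 in HUTU80. PKP3, a desmosomal plakophilin, was 9.16 in SNUC1 and 2.75 in COLO320HSR. PKP2 (10.20 in CL40, 3.35 in NCIH716) and DSC2, a desmosomal cadherin (10.36 in CL40, 3.43 in MDST8), did not fall in all keratin-poor lines. COLO320HSR kept PKP2 at 9.36 and DSC2 at 8.55, and HUTU80 kept DSC2 at 10.21.

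Among 13 other intermediate filament genes, 10 were above background in at least 1 line, and 5 of these had a range of 3 or more, beside 30.9% of all genes. VIM, vimentin of mesenchymal cells, was highest in the 4 lines MDST8 (13.19), COLO320HSR (12.43), NCIH716 (12.33) and HUTU80 (12.31). It was 8.30 in RKO, but also 8.86 in KM12 and 8.03 in CAR1, which had KRT8, KRT18 and KRT19 at 11.84 or more. HCT116 had 4.70, and the other lines were below background. NEFL, the light neurofilament chain, was 10.24 in COLO320HSR and 6.11 in NCIH716, and PRPH, peripherin of neurons, was 10.53 in NCIH716. SYNM, synemin, was highest in CAR1 (7.78). COLO320HSR, with KRT18 below background and KRT8 near it, thus had vimentin and a neurofilament chain at high levels.

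Some markers of other cell types were high in a few lines. LUM, a matrix gene of fibroblasts, was 11.30 in HUTU80, 10.57 in NCIH716, 7.05 in MDST8 and 4.15 in LS180, and below background in the other lines. DCN, another matrix gene, was 11.27 in HUTU80 and 4.16 in MDST8. Of the 5 fibroblast markers 4 were above background in HUTU80, 4 in MDST8, 3 in NCIH716, and 1 or 2 in the other lines. Every count includes COL1A1, which was near background in all 18 lines (4.04 to 4.93). At a level of 5 the counts were 2 in HUTU80, 1 in MDST8, 1 in NCIH716 and 0 in the other lines. The collagen genes COL1A2 and COL1A1 reached 4.93 in HUTU80, near background. Whether these genes have a part in the low keratins of HUTU80, MDST8 and NCIH716 was not tested. Leukocyte markers were above background in at most 1 of 4 per line, with PTPRC at 6.68 in SW48 and 6.40 in COLO320HSR, CD68 at 7.03 in RKO, and CD14 and CD3E no higher than 4.09 and 4.04. Of 4 endothelial markers CDH5 reached 5.87 in OUMS23, PECAM1 3.80, and VWF and KDR were above background in 0 lines.

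The squamous keratins of CAR1 were set beside other genes of squamous differentiation. Of 25 listed genes 23 were measured, and 19 were above background in at least 1 line. Some passed in a single line, as IVL and S100A7 did in OUMS23 and DSG1 in HUTU80. In each line 11455 to 11851 of all 15834 genes kept were above background. CAR1 had 7 of the 19 above background, with a median deviation of −0.17, while the other lines had 3 to 12. The most were in SNUC1, with 12 and a median deviation of 0.20. More of the counted genes were only near background in SNUC1 (3.85 to 4.74) than in CAR1 (up to 4.97). The counts therefore do not set CAR1 clearly below SNUC1. SERPINB5, maspin, was 10.28 in CAR1 and 10.77 in CL40. It was as high in LS180 (10.28) and was 9.92 in LS513 and 9.27 in SW48, lines in which no squamous keratin was above background. SFN, the epithelial 14-3-3 protein, was 10.82 in CAR1 and 12.54 in SW48. TRIM29 was 7.69 in CAR1 and 10.51 in LS513. SPRR1A, a precursor of the cornified envelope, was 2.90 in CAR1, below background, and 11.09 in LS513. Of the 19 genes 1 was highest in CAR1, the kallikrein gene KLK5 (11.35), which was named after its values were seen. Intestinal markers in CAR1 were 3.10 for VIL1, 3.90 for CDH17 and 3.37 for GPA33, with CDH1 at 9.57.

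Of 45 other keratin genes listed, 36 were measured, 26 were above background in at least 1 line and 16 in at least 3 lines. KRT15, a basal type I keratin, was highest in CAR1 (9.11), followed by HT55 (7.37), MDST8 (7.20) and HCT116 (7.12), and lowest in NCIH716 (3.88). KRT10, a type I chain of upper epidermis, was 9.26 in CL40 to 11.35 in MDST8 and so was highest in a line with KRT8 near background. KRT13, of mucosal stratified epithelia, was 5.48 in CAR1 and up to 4.47 elsewhere. Its partner KRT4 was instead 6.84 in NCIH716, 6.81 in LS180 and 5.07 in HT55, and 3.32 in CAR1. KRT75 reached 6.64 in LS180 and the hair keratin KRT34 5.94 in MDST8 and 5.45 in CAR1. KRT12, KRT24, KRT25, KRT32, KRT33A, KRT33B and KRT74 peaked at or under 5, and KRT71 at 5.04. The hair keratin KRT83 was 7.38 in HT55, 5.72 in RCM1 and 3.96 to 4.81 in the other lines.

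Culture medium was the 1 grouping in the labels. No keratin passed limma's moderated test between media, fitted over all 15834 genes. KRT8 averaged 10.90 ± 2.73 in DMEM/F-12 lines and 10.20 ± 3.76 in RPMI-1640 lines (SD, n = 10 and 8 lines), a difference of 0.70 with a standard error of 1.43. KRT18 averaged 11.81 ± 2.24 in DMEM/F-12 lines and 11.19 ± 3.29 in RPMI-1640 lines, and KRT19 averaged 10.06 ± 3.62 in DMEM/F-12 lines and 9.33 ± 4.02 in RPMI-1640 lines. KRT7 differed by 0.83 (95% interval −1.43 to 3.08), KRT23 by −0.34 (−3.45 to 2.78) and KRT80 by 0.90 (−0.67 to 2.47). KRT5, KRT14 and KRT16 differed by 0.22, 0.76 and 0.91, and by 0.02, 0.07 and 0.13 without CAR1. In limma the adjusted p was 0.999 for each of the 9 members. Over all genes 0.0% were called at an adjusted p under 0.05, and 424 had an unadjusted p under 0.05.

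The ranges in the 2 media overlapped for every simple keratin, with KRT8 at 4.63 to 13.03 in DMEM/F-12 lines and 4.19 to 12.90 in RPMI-1640 lines. The intervals are wide, and those of KRT8 (−2.31 to 3.71) and KRT19 (−2.81 to 4.28) include differences of several log2 units in either direction. Each medium was given to different lines, so medium and line cannot be told apart, and the p-values measure the spread between lines.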

How the data were processed

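The authors deposited log2 intensities for 54613 probe sets on 18 arrays of biotin-labelled total RNA, and the submitters' processing notes name RMA and affy, with versions not given in the sources used here. RMA corrects background, sets the intensity distributions of the arrays equal and summarises probes, so a change that shifted most genes would be removed. The values ran from 2.31 to 13.71, with array medians of 3.65 to 3.69, and were used as deposited.

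Probe sets with 1 annotated gene were used (40914, while 864 had several and 12835 none), and each gene was read from its brightest one on average. The background level came from 43 measured genes of 48 listed. Genes kept exceeded it in at least 1 line (15834). Media were compared with limma 3.58.1 (trend) in R 4.3.3 with Benjamini-Hochberg adjustment. All else used Python 3.11.15, with correlations given without p. The scripts were tested on simulated data.

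The members, lists, thresholds and alternatives were chosen with earlier results of these data known. The genes named were the members, other keratins above background in at least 3 lines, the 4 genes with the largest SD in each list, and for each member above background in at least 3 lines the 3 most alike genes and the 1 most opposed. Alternatives were other probe sets per gene, array scaling, background levels, thresholds, limma settings and leaving out each line. Sequences and gene order came from RefSeq tables of GRCh38.p14.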

Additional observations from a re-analysis of the deposited data

Results flagged for a closer look

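Within each medium, the highest or lowest line of each member was compared with the spread of the others, in 18 groups of lines (9 genes in 2 media). In 5 of them the gap was above the 95% critical value of Dixon's test, which chance passes in about 1 in 20 independent groups of normally distributed values. That rate does not hold here, because the values are floored or clustered and the flags in CAR1 share 1 array. The count of 5 is therefore not read against it. KRT18 was 5.90 in HUTU80, while the other DMEM/F-12 lines had 10.41 to 13.37. KRT18 was 3.59 in COLO320HSR, while the other RPMI-1640 lines had 9.88 to 13.31. In CAR1 KRT5 was 5.23 with 3.02 to 3.59 in the other DMEM/F-12 lines, KRT14 was 10.06 with 2.74 to 3.56, and KRT16 was 11.03 with 2.78 to 3.93. In the CAR1 cases the other lines were at or near background, so their spread is that of undetected signal, and any clear signal in 1 line would pass. KRT18 in COLO320HSR was below background. For KRT8 no line passed in either medium.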

How the results depend on the processing

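No alternative run called a gene between the media by limma or turned a summary result. The count of members with a range of 3 or more was 8 with other probe sets or scaling and 9 at a threshold of 2. Simple keratins above background, summed over the lines, numbered 90, and 76 at a level of 5, a level chosen after the data were seen. Differences between media, none called, turned sign when 1 line was left out: KRT8 ranged from −0.16 to 1.40, KRT18 from −0.47 to 1.28, KRT19 from −0.11 to 1.47 and KRT23 from −0.92 to 0.44. The lines were MDST8 or COLO320HSR for KRT8 and KRT19, COLO320HSR for KRT18, and RCM1, SNUC1 or LS513 for KRT23. KRT16 was above background in 1 line instead of 2 at the 99th percentile (4.45) or at 5. No paired analysis was possible because the replicate numbers only name lines. With 1 array per line, differences near 0.38 or values near background have no order.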

Other observations

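HT55 had more other keratins above background than any other line, 12 of 26. Among the 12 were the hair keratins KRT83 (7.38), KRT38 (6.79), KRT37 (6.40) and KRT36 (5.83), all highest in HT55. KRT12 (4.18), KRT13 (4.47), KRT34 (4.34) and KRT74 (3.91) were only near background there. KRT36 and KRT38 were among the 26 through HT55 alone. In each line 11455 to 11851 of all 15834 genes kept were above background, so the count in HT55 is no high share. KRT38, KRT37 and KRT36 were named after their values were seen. LMNA, the A-type lamin of the nuclear envelope and also named after its values were seen, was 4.64 in COLO320HSR and 8.02 to 10.77 in the other lines.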
